A study of Drosophila melanogaster with 10 samples.

Results

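The Dpr, DIP, Beat and Side families are cell-surface proteins that neurons use to recognise one another. By gene symbol, 53 of the 9655 genes in the deposited expression table belonged to them, with 21 Dpr, 11 DIP, 13 Beat and 8 Side genes. All 53 were protein coding and were present among the 23882 features of the count tables, and their symbols and chromosome arms matched the BDGP6 annotation. They were measured by bulk RNA sequencing of Kenyon cells (KCs), the intrinsic neurons of the mushroom bodies, sorted from female Drosophila melanogaster on the day of eclosion (day 0). Mutant flies were homozygous for dSERT16, an imprecise P-element excision that took a non-coding exon and upstream DNA from the 5′ end of the serotonin transporter gene SerT, and control flies were homozygous for dSERT4, a matched excision line that carries a smaller deletion of its own. Flies of both genotypes also carried Mef2(P247)-gal4 driving UAS-nls.GFP, which marks KC nuclei and takes in more α/β and γ than α′/β′ cells. Each sample was a pool of brains without optic lobes, sorted for GFP. There were 5 samples per genotype, 1 of each from every collection date, and the replicate numbers 1 to 5 follow the dates. The genotypes were compared over replicates 2 to 5, the samples that the study kept, so n = 4 each unless stated.

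Dpr and DIP proteins carry immunoglobulin domains and bind across families, most Dprs binding a small set of DIPs and the reverse. A neuron that holds a given Dpr can thereby meet a partner that holds the matching DIP, and such pairs act in layer choice, synapse formation and cell survival in the fly visual system and at the neuromuscular junction. Beat proteins are receptors for Side proteins. The founding pair is Beat-Ia on motor axons and Side on their path to the muscles, and other Beat and Side proteins pair with each other in the same way. In the mushroom body, Dpr12 of γ KCs and DIP-delta of dopaminergic neurons are needed for the outer part of the γ lobe to form.

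Reads counted on genes ranged from 18446396 to 69997102 per sample. SerT, the mutated gene, had 5 to 40 reads in dSERT16 replicates 2 to 5 and 19 to 69 reads in dSERT4 replicates 2 to 5, with 51 reads in dSERT16 replicate 1 and 183 in dSERT4 replicate 1. All 13 KC markers examined (ey, toy, dac, Mef2, prt, sNPF and others) were tested. Levels of a gene between samples are given as CPM, its reads scaled to a common library size. Scaled in this way, SerT in replicates 2 to 5 was at 0.23 to 0.762 CPM in dSERT16 and 0.92 to 3.398 CPM in dSERT4. The genotypes thus did not overlap for SerT in CPM, at few reads. Its difference did not pass the genotype test described below (edgeR adjusted p = 0.519). The KC markers summed to 22481 to 23472 CPM in dSERT16 and 20766 to 24824 CPM in dSERT4, here and below over replicates 2 to 5. Markers of other cells were also read. The sum of 9 glial markers was 994 to 1576 CPM in dSERT16 and 947 to 1608 CPM in dSERT4, with moody, alrm and Tret1-1 at 0 reads in all 10 samples. Summed, 7 markers of other transmitter systems, SerT among them, gave 174 to 265 CPM in dSERT16 and 155 to 211 CPM in dSERT4. Most of this was VGAT, with means of 161 CPM in dSERT16 and 149 CPM in dSERT4. The 8 photoreceptor and eye markers summed to 137 to 197 CPM in dSERT16 and 123 to 183 CPM in dSERT4. Of these, norpA averaged 159 CPM in dSERT16 and 137 CPM in dSERT4. The 7 fat body and blood cell markers summed to 10.9 to 31.6 CPM in dSERT16 and 25.5 to 46.0 CPM in dSERT4. In such bulk samples, fewer cells of a type and less RNA per cell cannot be told apart. The 2 samples of replicate 1 stood apart in their glial markers and are described at the end.

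Levels of different genes were compared as exon TPM, that is TPM computed from the deposited counts with the summed exon length of each gene. The length mattered for these families. All 53 genes spanned more of the genome than the median gene tested, with a median span of 35.6 kb against 3.28 kb, while their summed exons had a median of 3.49 kb against 2.31 kb. In the deposited TPM, counts divided by TPM followed the whole gene span with its introns to within an SD of 0.00106 or less on the log2 scale in each of the 8 samples, and followed summed exons only to within an SD of 0.979 to 1.01. By the authors' TPM, 30 of the 53 genes were at 1 TPM or more in all 8 samples. By exon TPM 47 were, including all of those 30. The mean was at least 10 exon TPM for 31 genes, at least 100 for 16 and below 1 for 0.

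**Figure D1:**
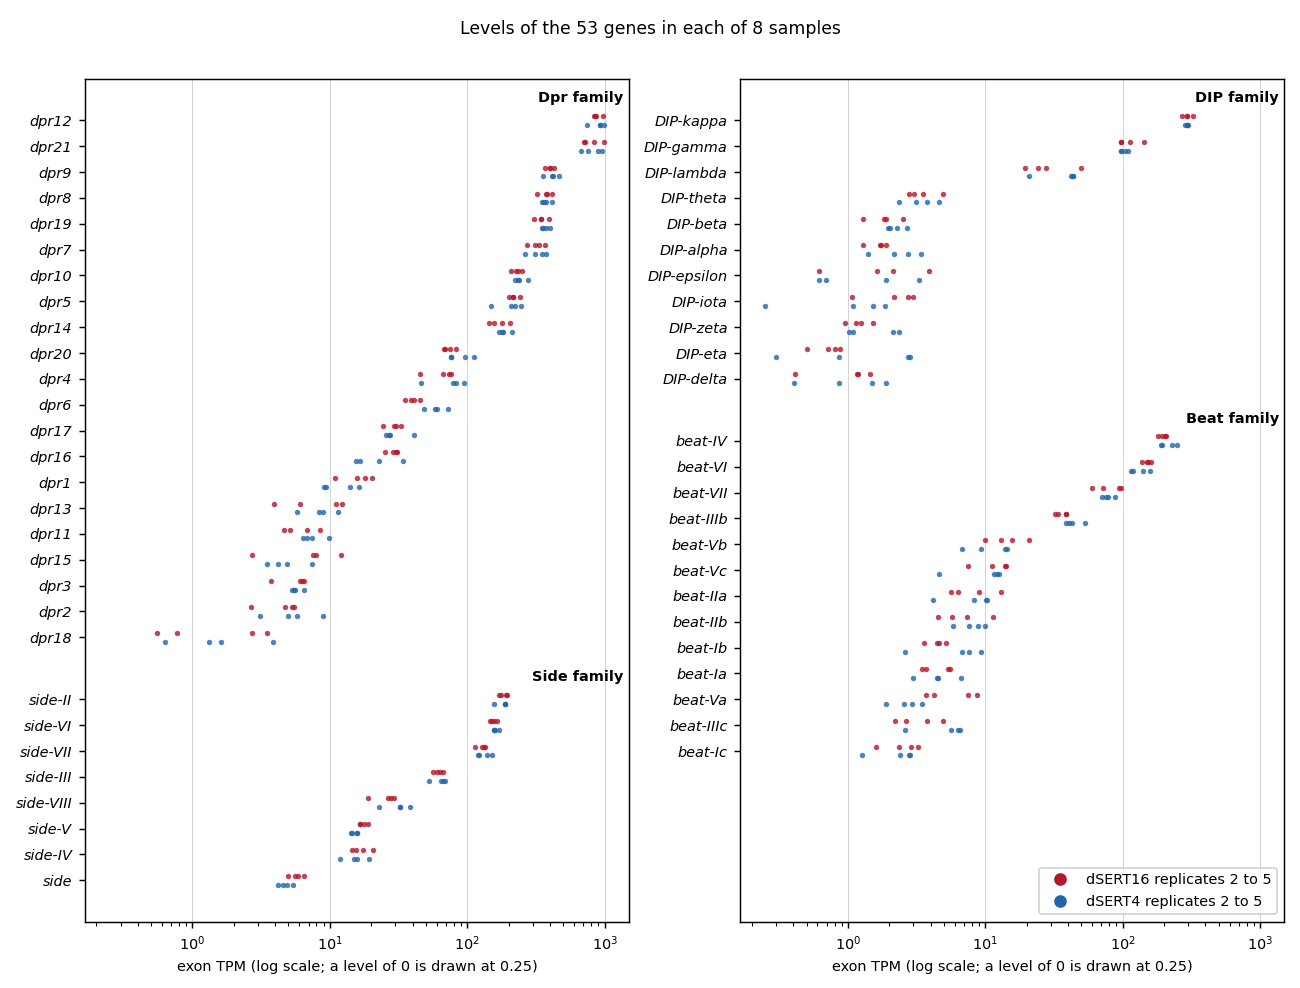
Level of each gene in each of 8 samples, in exon TPM on a log axis, by family and ordered by mean, with dSERT16 replicates 2 to 5 in red above dSERT4 replicates 2 to 5 in blue. The Dpr family reaches from a mean of 1.87 for dpr18 to 889 for dpr12, whereas 8 of the 11 DIP genes lie below 10 exon TPM, and the scatter within a genotype widens towards low levels. The level of DIP-epsilon, among these 8, depends strongly on how reads are counted.

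The Dpr genes were the most abundant family. Of the 21 Dprs, 15 were at 10 exon TPM or more and 9 at 100 or more, with a median of 70.5. The highest was dpr12, at 889 ± 81.0 exon TPM (SD, n = 8), above 97.9% of the genes tested. It was followed by dpr21 at 816 ± 118, and the spread of these genes overlapped. Both together made up 41.6% of the exon TPM of the family. Then came dpr9 at 406.1 ± 34.9, dpr8 at 375 ± 29.7, dpr19 at 359 ± 30.7 and dpr7 at 323 ± 41.0, neighbours that differed by about their SD or less. Next were dpr10 at 237 ± 20.3, dpr5 at 212 ± 29.9 and dpr14 at 178 ± 22.5 exon TPM. Both dpr21 and dpr8 are outside the rule for named genes, which used the authors' TPM, and were chosen after their values were seen. The place of dpr21 and the share of 41.6% rest on its annotated exons, at 993 bp the shortest of the family. Not divided by length, dpr21 averaged 304 CPM in dSERT16 and 301 CPM in dSERT4. This was below dpr9 (723 and 741 CPM), dpr8 (698 and 691 CPM) and dpr19 (351 and 369 CPM).

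The DIP genes, receptors for Dprs, were mostly low. DIP-kappa stood at 293 ± 15.1 exon TPM (SD, n = 8) and alone gave 65.3% of the exon TPM of its family. DIP-gamma followed at 107 ± 15.9, and DIP-lambda, chosen after its values were seen, at 33.6 ± 11.9. These 3 genes made up 96.7% of the family's exon TPM. The other 8 DIPs had means between 1.11 and 3.52 exon TPM. Summed over each family, Dpr exon TPM was 8.93 times DIP exon TPM in dSERT16 and 9.33 times in dSERT4. These values rest on unstranded counts. DIP-epsilon, among the 8 low DIPs, gained 45.5-fold when reads were counted on each strand and summed. Its low level, the share of 96.7% and the ratios of the families are therefore uncertain. DIP-iota was the 1 gene of the 53 with a sample at 0 reads, dSERT4 replicate 3.

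Among the receptors of the Beat family, 6 of 13 genes were at 10 exon TPM or more. They were led by beat-IV at 205 ± 22.6 and beat-VI at 141 ± 17.5 exon TPM (SD, n = 8), and the other 7 Beats had means between 2.41 and 8.36. In the Side family, 7 of 8 genes were at 10 exon TPM or more. The highest were side-II at 182 ± 13.0, side-VI at 158 ± 7.66 and side-VII at 130 ± 12.3 exon TPM. The founding member side was the lowest of its family at 5.23 ± 0.746, and its receptor beat-Ia stood at 4.58 ± 1.23.

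Partners known from binding studies were held at unequal levels in some cases and at like levels in others. Dpr12 RNA was at 889 ± 81.0 exon TPM and that of its partner DIP-delta at 1.11 ± 0.526 (SD, n = 8). The DIP-alpha ligands dpr10 and dpr6 were at 237 ± 20.3 and 49.97 ± 12.6 exon TPM, and DIP-alpha itself at 2.04 ± 0.711. The reverse held for DIP-gamma at 107 ± 15.9 and dpr11, a ligand of it, at 6.95 ± 1.71. Only this pair was compared for DIP-gamma, so its other ligands are not covered. In the other families, both beat-IV and its ligand side-II were high, at 205 ± 22.6 and 182 ± 13.0 exon TPM. For the Beat-V receptors the ligand side-VI was high at 158 ± 7.66, whereas beat-Vb, beat-Vc and beat-Va were at 13.0 ± 4.37, 10.9 ± 3.29 and 4.37 ± 2.43. Beat-IIa and beat-IIb, at 8.36 ± 2.88 and 7.66 ± 2.32, faced side-IV at 16.2 ± 2.74 exon TPM. The levels of side-IV and DIP-alpha are uncertain, since counting reads on each strand and summing raised them 5.58-fold and 1.89-fold.

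**Figure D2:**
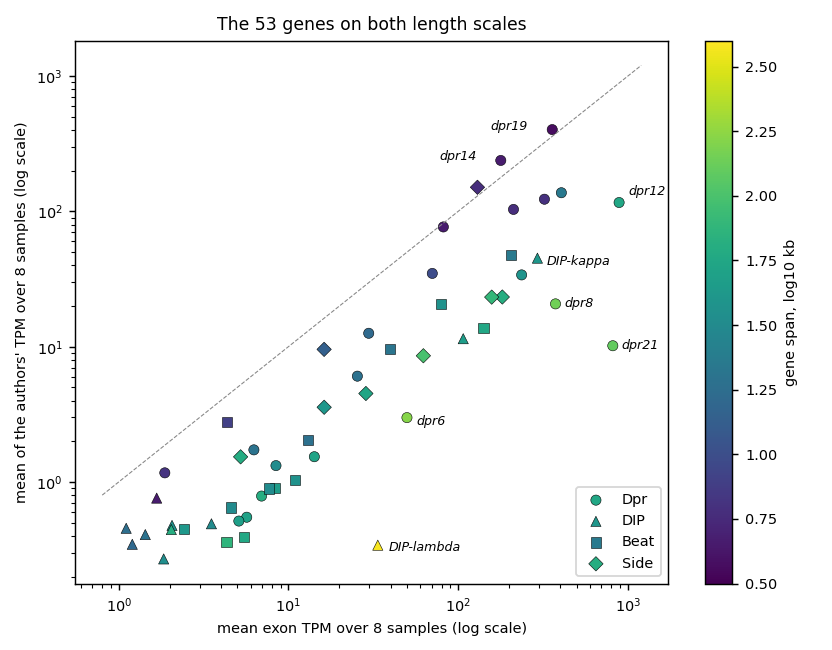
Mean over 8 samples of the authors' TPM against mean exon TPM for the 53 genes, both on log axes, with marker shape by family and colour by gene span, and a dashed line where both are equal. Genes with long spans lie far below the line, such as dpr21, which ranks 2 by exon TPM and 20 by the authors' TPM, whereas dpr19 and dpr14 with spans of 3738 and 4583 bp lie above it. The exon TPM of dpr21 rests on 993 bp of annotated exon.

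For some genes the level depended on how reads were counted. The libraries carry no strand, and the counts used here leave out reads that could belong to more than 1 feature. When reads were instead counted on each strand and summed, 47 of the 53 genes gained less than 1.1-fold. The other 6, listed for this reason whether or not the rule names them, were DIP-epsilon (45.5-fold), side-IV (5.58-fold), DIP-alpha (1.89-fold), dpr4 (1.36-fold), beat-Ib (1.27-fold) and DIP-iota (1.16-fold). Of the exon sequence of side-IV, 67.5% was overlapped by the antisense genes asRNA:CR17025 and asRNA:CR46354, and 15.7% of that of dpr4 by asRNA:CR45056. For side-IV and dpr4, reads of the gene and of its antisense genes cannot be told apart. In DIP-alpha 2.94% of the exon sequence was overlapped, and in DIP-epsilon, beat-Ib and DIP-iota none was in the annotation used here (0 bp), so the source of their gain was not identified. The levels of all 6 are uncertain.

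The genotype comparison asked whether these genes differed in KCs between the mutant and the control line. These lines differ in the SerT mutation and in the DNA that each excision took. In this contrast the paper found differential genes concentrated on the chromosome arm of SerT. It proposes that at least some may stem from the disrupted DNA and not from serotonin signaling. How far this bears on the genes of these families was not tested. All 53 passed the filter on low counts and were tested together with all other features, 8690 in total, by the quasi-likelihood test of edgeR, with p-values adjusted after Benjamini and Hochberg. None of the 53 passed an adjusted p of 0.05, that is 0 genes, where 43 of all features did (0.495%). At an unadjusted p under 0.05 there were 2 of the 53, dpr6 and beat-Va, against 7.01% of all features. DESeq2, the tool that the study used, called both of them, against 1.46% of the features it tested, and with the replicate number as a block against 2.08%. The median log2 fold change of dSERT16 over dSERT4 was 0.0039 for the 53 genes and 0.00011 for all features. It was -0.024 for the Dprs, -0.13 for the DIPs, 0.067 for the Beats and 0.025 for the Sides.

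**Figure D3:**
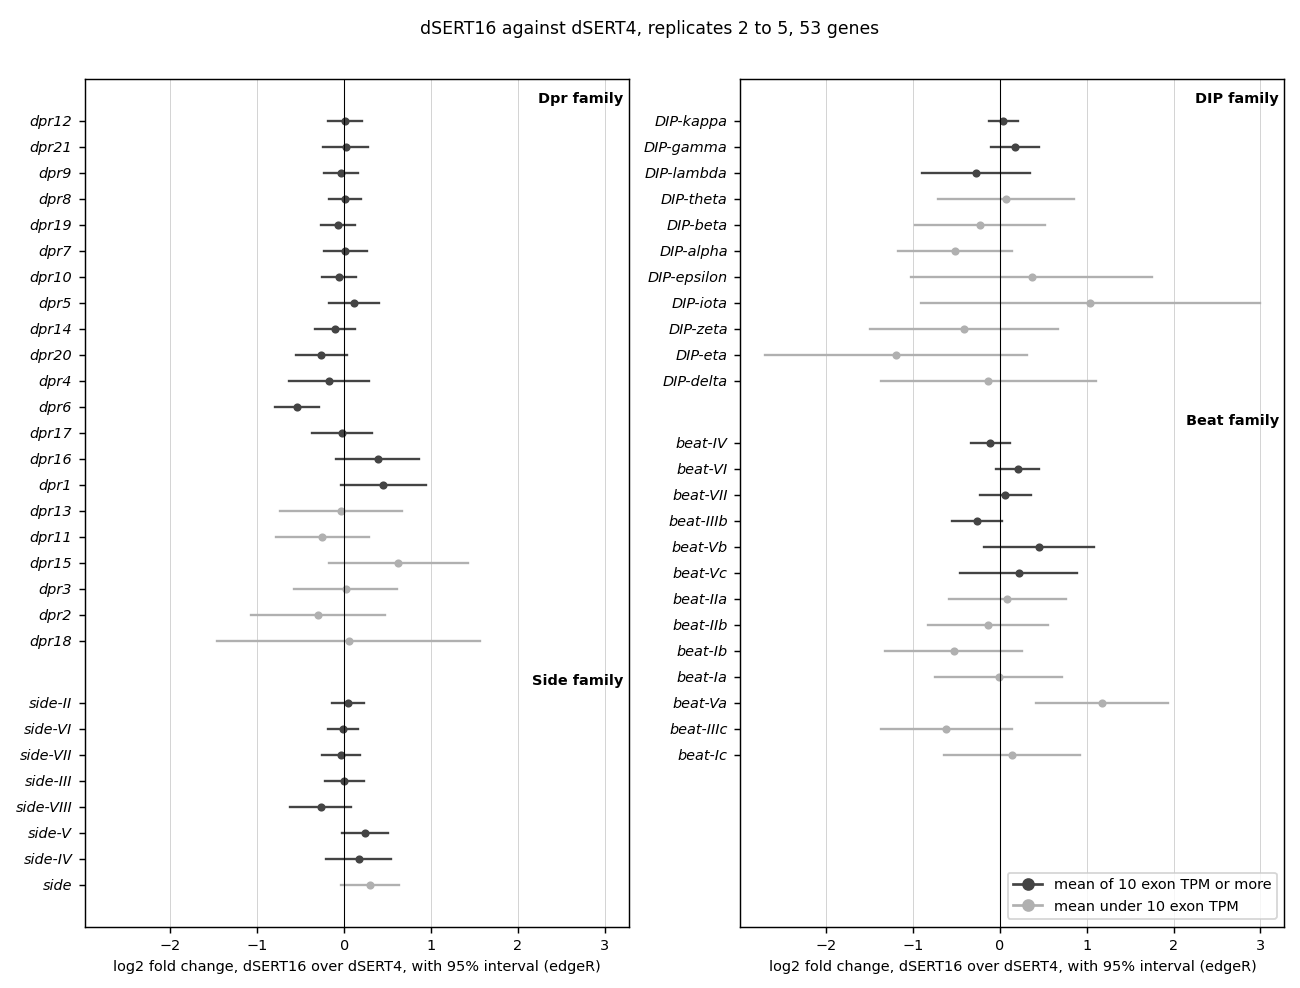
Log2 fold change of dSERT16 over dSERT4 (replicates 2 to 5) with its 95% interval from edgeR, by family and ordered by level, dark for genes at a mean of 10 exon TPM or more and grey for those below. The intervals of dpr6 (-0.79 to -0.29) and beat-Va (0.41 to 1.94) exclude 0, those of the highest genes are narrow, and those of low DIPs such as DIP-iota reach from -0.91 to 2.99.

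The gene with the lowest p was dpr6, a Dpr ligand of DIP-alpha. It spans 164710 bp of chromosome 3L, from 9974651 to 10139360 in BDGP6, and dpr10 begins 8093 bp beyond it. In dSERT16 replicates 2 to 5 it was at 99.1, 104, 85.1 and 93.9 CPM, and in dSERT4 replicates 2 to 5 at 115, 165, 134 and 143 CPM. Every dSERT16 sample was thus below every dSERT4 sample, and replicate 1, left out here, lay on the same sides with 99.5 CPM in dSERT16 and 168 CPM in dSERT4. Within the 5 dates, dSERT16 minus dSERT4 in log2 CPM was -0.76, -0.22, -0.67, -0.65 and -0.60 for replicates 1 to 5. The means were 95.6 ± 8.12 CPM in dSERT16 and 139 ± 20.8 CPM in dSERT4 (SD). The log2 fold change was -0.54 (standard error 0.12, 95% interval -0.79 to -0.29), with an edgeR adjusted p = 0.0596.

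This p lies just above the threshold, and the call turned on the fit. With the replicate number as a block, that is with samples of 1 date paired, the log2 fold change of dpr6 was -0.54 (edgeR adjusted p = 0.0495), and dpr6 was then the 1 gene of the 53 called, against 0.621% of all features. It was also the 1 gene called with all 5 pairs (-0.59, edgeR adjusted p = 0.0142, against 0.756% of all features), and with the block on 5 pairs (-0.58, edgeR adjusted p = 0.0137, against 1.08%). Without a filter (against 0.498% of all features) and with at least 10 counts in every sample (against 0.638%) it was the 1 gene called as well. DESeq2 gave -0.54 (adjusted p = 0.00349). Leaving out 1 sample at a time in edgeR gave values from -0.62 to -0.45 and adjusted p from 0.0179 to 0.228, the lowest without dSERT4 replicate 2, the 1 omission of 8 that gave a call (against 0.451% of all features). In all 17 alternatives run, the value stayed negative.

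Its neighbour and fellow ligand dpr10 gave other values. It was at 308, 326, 314 and 281 CPM in dSERT16 replicates 2 to 5 and at 369, 301, 291 and 319 CPM in dSERT4 replicates 2 to 5, so the genotypes overlapped. The log2 fold change was -0.058 (standard error 0.092, 95% interval -0.26 to 0.14, edgeR adjusted p = 0.980). DIP-alpha, their receptor, was at 5.89, 5.70, 4.39 and 6.54 CPM in dSERT16 and at 9.24, 11.0, 7.09 and 4.75 CPM in dSERT4. Its lowest dSERT4 sample fell within the dSERT16 range, and the log2 fold change was -0.51 (standard error 0.30, edgeR adjusted p = 0.826). Counted by strand and summed, DIP-alpha gave -0.42 (standard error 0.23, edgeR adjusted p = 0.785).

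**Figure D4:**
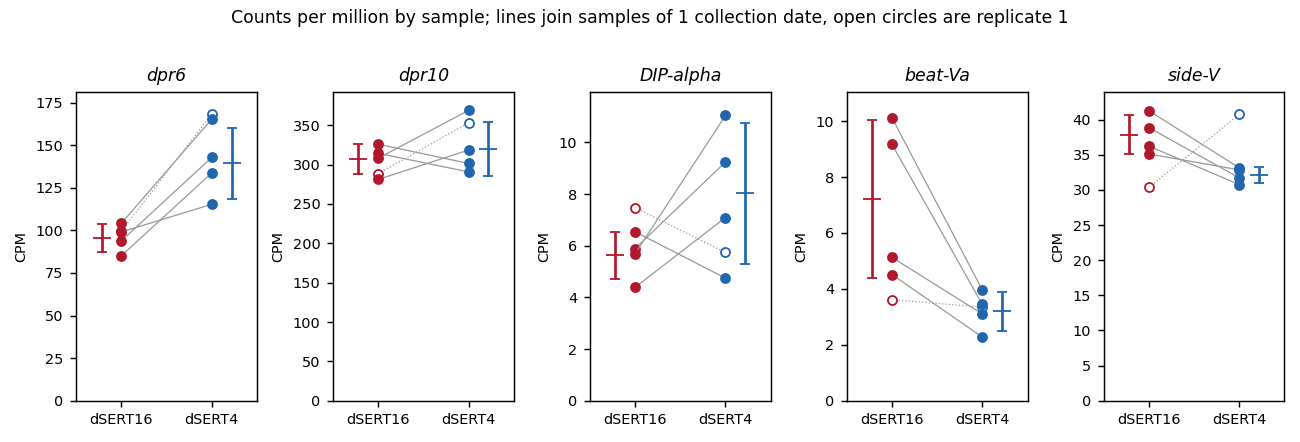
CPM of dpr6, dpr10, DIP-alpha, beat-Va and side-V in every sample, dSERT16 left and dSERT4 right, with lines joining samples of 1 collection date, open circles for replicate 1, and bars for the mean and SD of replicates 2 to 5. In dpr6 all 5 lines climb towards dSERT4 and the genotypes do not overlap, in beat-Va and side-V they separate in replicates 2 to 5 but not with replicate 1, and in dpr10 and DIP-alpha the lines cross.

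The other Dpr and DIP pairs showed no difference that passed the test. For dpr12, at 1558, 1442, 1737 and 1533 CPM in dSERT16 replicates 2 to 5 and 1311, 1582, 1583 and 1749 CPM in dSERT4 replicates 2 to 5, the log2 fold change was 0.010 (95% interval -0.19 to 0.21). Its partner DIP-delta was at 0.759 to 2.64 CPM in dSERT16 and 0.727 to 3.46 CPM in dSERT4, with an interval of -1.37 to 1.10. DIP-gamma averaged 132 ± 27.0 CPM in dSERT16 and 117 ± 8.51 CPM in dSERT4 (SD, 95% interval of the log2 fold change -0.097 to 0.45). Dpr11, a ligand of it, averaged 11.0 ± 3.25 CPM in dSERT16 and 13.1 ± 2.87 CPM in dSERT4 (-0.78 to 0.28). The interval of DIP-delta is the widest of these, at a level of few reads.

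The gene dpr1, named for the proboscis extension response to salt that its loss impairs, was at 14.9, 26.8, 21.6 and 24.8 CPM in dSERT16 replicates 2 to 5 and at 12.6, 18.3, 21.3 and 12.4 CPM in dSERT4 replicates 2 to 5. It was higher in dSERT16 on each of the 5 dates, yet the genotypes overlapped. The log2 fold change was 0.45 (standard error 0.23, 95% interval -0.040 to 0.94, edgeR adjusted p = 0.756). Also dpr20 was lower in dSERT16 on each date, at 75.6 ± 6.89 CPM in dSERT16 and 90.7 ± 18.6 CPM in dSERT4 (log2 fold change -0.26, edgeR adjusted p = 0.783). The abundant dpr21, dpr9, dpr8, dpr19 and dpr7 had log2 fold changes between -0.072 and 0.016, the largest in size being that of dpr19 with an interval of -0.26 to 0.12. DIP-kappa, the highest DIP, averaged 443 ± 25.1 CPM in dSERT16 and 430 ± 12.6 CPM in dSERT4, with a log2 fold change of 0.044 (-0.12 to 0.21).

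In the Beat family, beat-Va had the highest log2 fold change of the 53 genes. It lies on 3R from 12840560 to 12848419, in a group with beat-Vb and beat-Vc. In dSERT16 replicates 2 to 5 it was at 5.13, 10.1, 9.16 and 4.51 CPM, and in dSERT4 replicates 2 to 5 at 3.10, 3.96, 3.45 and 2.28 CPM. The genotypes did not overlap there, but dSERT16 replicate 1 at 3.61 CPM lay within the dSERT4 range, beside 3.35 CPM in dSERT4 replicate 1. The log2 fold change was 1.18 (standard error 0.36, 95% interval 0.41 to 1.94), with an edgeR adjusted p = 0.301. It was called by DESeq2 (adjusted p = 0.0280), and in no edgeR fit.

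Its neighbours did not pass the test. Beat-Vb averaged 10.6 ± 3.30 CPM in dSERT16 and 7.75 ± 2.59 CPM in dSERT4 (log2 fold change 0.45, 95% interval -0.19 to 1.09), and without dSERT16 replicate 4 the value was 0.24. Beat-Vc averaged 9.88 ± 2.56 CPM in dSERT16 and 8.48 ± 3.10 CPM in dSERT4 (0.22, -0.45 to 0.89). Without dSERT4 replicate 5 its value was -0.016, but that fit kept dSERT16 replicate 5, also the lowest sample of its genotype. Within dates, beat-Vc was higher in dSERT16 each time, by 0.0061 to 0.72 in log2 CPM. With the replicate number as a block the value was 0.275 (edgeR adjusted p = 0.813). Side-VI, ligand of the Beat-V proteins, was at 405.7 to 463 CPM in dSERT16 and 418 to 471 CPM in dSERT4, a log2 fold change of -0.017 (-0.19 to 0.15).

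For the remaining Beat receptors and Side ligands, values lay nearer 0 or were too variable to tell. The receptor beat-IV averaged 248 ± 14.7 CPM in dSERT16 and 267 ± 39.8 CPM in dSERT4 (log2 fold change -0.11, 95% interval -0.33 to 0.12). Its ligand side-II averaged 367 ± 22.3 CPM in dSERT16 and 355 ± 27.5 CPM in dSERT4 (0.045, -0.14 to 0.23). Beat-Ia was at 3.78 to 6.08 CPM in dSERT16 and 3.20 to 6.99 CPM in dSERT4 (-0.013, -0.74 to 0.71). The intervals of the abundant pair are thus much narrower than that of beat-Ia. Its ligand side was at 24.9, 25.0, 29.0 and 22.4 CPM in dSERT16 and at 20.0, 22.8, 17.9 and 21.4 CPM in dSERT4, higher in dSERT16 on each of the 5 dates. For side the log2 fold change was 0.30 (standard error 0.16, -0.032 to 0.64, edgeR adjusted p = 0.778).

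Beat-IIa, beat-IIb and side-IV had log2 fold changes of 0.086, -0.14 and 0.17, each with an interval that spans 0. Counted by strand and summed, side-IV gave 0.022. Beat-VI averaged 201 ± 13.4 CPM in dSERT16 and 174 ± 30.0 CPM in dSERT4 (log2 fold change 0.21, edgeR adjusted p = 0.818). Beat-IIIb averaged 43.7 ± 3.45 CPM in dSERT16 and 52.5 ± 8.50 CPM in dSERT4 (-0.26, edgeR adjusted p = 0.754), and was lower on each date. Beat-IIIc averaged 4.95 ± 1.67 CPM in dSERT16 and 7.59 ± 2.61 CPM in dSERT4 (-0.61, edgeR adjusted p = 0.820).

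Side-V was the third gene, after dpr6 and beat-Va, whose genotypes did not overlap in replicates 2 to 5. It was at 38.9, 35.1, 41.3 and 36.2 CPM in dSERT16 and at 31.7, 32.9, 33.1 and 30.8 CPM in dSERT4 (log2 fold change 0.24, standard error 0.12, edgeR adjusted p = 0.783). Replicate 1 went the other way, with 30.4 CPM in dSERT16 and 40.8 CPM in dSERT4. Of the 7 genes that lie on 2R, the arm of SerT, side-V is nearest to it, at 1.20 Mb.

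Counted over the families, 3 of the 53 genes had genotypes that did not overlap in replicates 2 to 5, where 4.89% of all features did. With replicate 1 included there was 1, dpr6, where 2.7% of all features did. Over the 5 dates, 4 genes (dpr1, side, beat-Va and beat-Vc) were higher in dSERT16 each time, against 6.23% of all features, and 3 (dpr6, dpr20 and beat-IIIb) were lower each time, against 5.92%. Such shares are close to those of all features. The log2 fold change was above 0 for 27 of the 53 genes and for 50% of all features.

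How small a difference could have been seen depended on the level. All 16 genes at 100 exon TPM or more had a 95% interval within 0.5 of 0 on the log2 scale, the widest bounds being -0.34 and 0.45. Over the 53 genes, 19 had an interval within 0.5 and 40 within 1, and 13 had one that reached beyond 1. The median coefficient of variation among replicates was 9.11% in dSERT16 and 14.9% in dSERT4 for genes at 10 exon TPM or more, and 28.8% in dSERT16 and 32.8% in dSERT4 for the 22 genes below 10. The fold changes of these 22 ranged from -1.19 (DIP-eta) to 1.18 (beat-Va) on the log2 scale, and DIP-eta and DIP-iota, which were named after their values were seen, had few reads.

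For comparison, of a list of 51 other cell-surface genes of neuronal wiring (Dscams, fasciclins, neurexins and neuroligins, teneurins, cadherins, Robo and netrin receptors, semaphorins and plexins), 50 were matched and 48 tested. None was called by edgeR without the block (0 genes), 5 were at an unadjusted p under 0.05 (10.4% of the list, against 7.01% of all features), and DESeq2 called 2, against 1.46% of the features it tested. With the replicate number as a block edgeR called 1 gene, unc-5, against 0.621% of all features. Of these genes, unc-5 and otk are given after their values were seen. The netrin receptor gene unc-5 averaged 78.7 CPM in dSERT16 and 49.2 CPM in dSERT4 (log2 fold change 0.68, standard error 0.15, edgeR adjusted p = 0.0596, and 0.0244 with the block). The receptor tyrosine kinase-like gene otk averaged 19.2 CPM in dSERT16 and 34.3 CPM in dSERT4 (-0.83, standard error 0.22, edgeR adjusted p = 0.154, and 0.105 with the block). It was called by edgeR with all 5 pairs (adjusted p = 0.0454). The paper names otk among the genes significant with the same direction in its bulk and single-cell dSERT16 data. How far the disrupted DNA bears on unc-5 and otk was not tested. The median log2 fold change of the list was -0.083, against 0.00011 for all features.

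Replicate 1, the pair that the study left out, was set against replicates 2 to 5 over all 10 samples, in an edgeR fit that also held the genotype. It gave 84 called features of 8726 (0.963%) and 2 called genes of the 53. These were side-VIII, which was lower in replicate 1, as were 0.756% of all features, and DIP-kappa, which was higher, as were 0.206%. At an unadjusted p under 0.05 there were 9 of the 53, against 15% of all features. Of the 6 glial markers tested, 4 were also called, all lower in replicate 1, with a summed level of 231 CPM in dSERT16 replicate 1 and 485 CPM in dSERT4 replicate 1, against 947 to 1608 CPM in the other 8 samples. None of the 13 KC markers was called (0 genes). How far glial RNA bears on the genes below was not tested.

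Side-VIII, which lies on 2R from 20424338 to 20478951, was at 20.3 CPM in dSERT16 replicate 1 and 19.8 CPM in dSERT4 replicate 1. In replicates 2 to 5 it was at 58.1, 53.7, 61.6 and 39.8 CPM in dSERT16 and at 67.4, 64.7, 77.6 and 47.5 CPM in dSERT4. Both samples of replicate 1 were below all others. The log2 difference was -1.54 (standard error 0.20, edgeR adjusted p = 0.00146), and it was called when any 1 of the 8 samples of replicates 2 to 5 was left out. Leaving out a sample of replicate 1 leaves a lone sample there, assumed to vary like the others. Under that assumption side-VIII was called without either one, at -1.69 without dSERT16 replicate 1 (edgeR adjusted p = 0.0245) and -1.39 without dSERT4 replicate 1 (edgeR adjusted p = 0.0356). Between the genotypes the log2 fold change of side-VIII was -0.27 (standard error 0.16, edgeR adjusted p = 0.826).

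DIP-kappa, which lies on 2L from 13676860 to 13717320, was at 546 CPM in dSERT16 replicate 1 and 661 CPM in dSERT4 replicate 1, against 410 to 471 CPM in dSERT16 replicates 2 to 5 and 413 to 441 CPM in dSERT4 replicates 2 to 5. Both samples of replicate 1 were above all others. The log2 difference was 0.47 (standard error 0.087, edgeR adjusted p = 0.0216). Without dSERT4 replicate 1, and so with dSERT16 replicate 1 alone and the same assumption on its spread, it was 0.30 and not called (edgeR adjusted p = 0.340), and side-VIII was the 1 called gene, against 0.628% of all features. Without dSERT4 replicate 2 there were 3, with beat-IIIb, against 1.53%. Just short of a call was side, at 16.8 CPM in dSERT16 replicate 1 and 9.04 CPM in dSERT4 replicate 1 (log2 difference -0.87, edgeR adjusted p = 0.0561). Likewise beat-IIIb was at 70.2 CPM in dSERT16 replicate 1 and 72.5 CPM in dSERT4 replicate 1 (log2 difference 0.58, edgeR adjusted p = 0.0624). DESeq2 called 5 of the 53 genes, adding side, beat-IIIb and DIP-theta, against 4.88% of the features it tested.

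**Figure D5:**
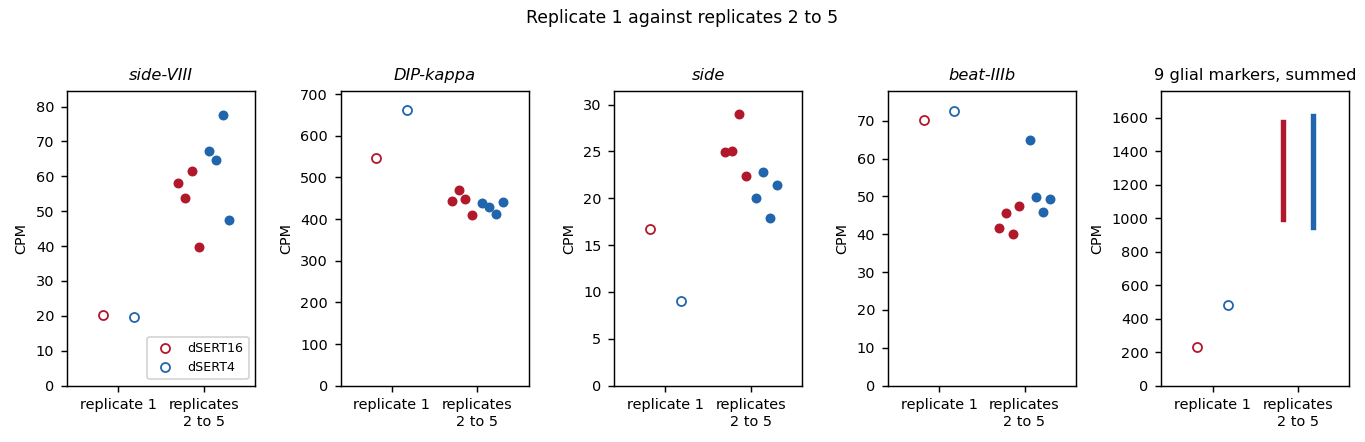
CPM of side-VIII, DIP-kappa, side and beat-IIIb in replicate 1 (left, open circles) and replicates 2 to 5 (right, filled circles), dSERT16 in red and dSERT4 in blue, and the summed CPM of 9 glial markers with bars from the lowest to the highest of replicates 2 to 5. In replicate 1, side-VIII stands at 20.3 CPM in dSERT16 and 19.8 CPM in dSERT4, below every other sample, and the glial sum at 231 CPM in dSERT16 and 485 CPM in dSERT4, below a range that starts at 947.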

How the data were processed

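The authors aligned reads to BDGP6 (dm6) with STAR and deposited counts of uniquely mapped reads per gene, without normalization. They also deposited TPM values for replicates 2 to 5, together with their fold changes and p-values, which were not used. The annotation release, the gene lengths behind the TPM and the STAR version are not given in the sources used here. Unmapped (8.03% to 14.5%), multimapping (0.875% to 1.13%), ambiguous (8.84% to 9.85%) and featureless reads (0.264% to 0.463%) stayed out of library sizes. No molecular identifiers were used, so PCR copies were counted as reads.

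The test on unstranded counts was that of edgeR 4.0.16 (R 4.3.3). Features were kept by filterByExpr (minimum count 10, minimum total 15), TMM-normalized over the samples of each fit and fitted by the robust quasi-likelihood method, and adjusted p under 0.05 was called over all features tested. The standard error was taken as the size of the log2 fold change divided by the root of F. CPM values use TMM factors of all 10 samples. Log2 CPM uses a prior count of 2. Exon TPM and gene positions use Ensembl release 115 of BDGP6, and exon length is the union of annotated exons. Tables were made in Python 3.11.15.

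The members and lists were chosen with earlier results of these data known. Genes were named if they were called, among the 12 highest by the authors' TPM, among the 5 lowest p in each direction, part of a known binding pair, dpr1 (which the paper names), or called in replicate 1, which gave 33 genes. The paper names dpr1, and in older flies also beat-IIa and side, from single-cell data on another allele, dSERTTMKO. The replicate number pairs the samples because the sample titles give the genotypes shared prefixes that read as dates. Deviations from the genotype means correlated within dates at 0.0976, 0.0838, 0.0561 and 0.0797 for replicates 2 to 5. Between different dates the correlations ran from -0.109 to 0.0779, so the ranges overlapped. Alternatives were DESeq2 1.42.0, its size factors in edgeR, other filters, all 5 pairs, the replicate block, strand-summed counts, an adjusted p under 0.01 and leaving out each sample. Added after seeing the data were DESeq2 with the block, TPM on exon length and all alternatives for the other wiring genes. The edgeR fits without the block were also run on simulated counts. These had the same replicate variation for every gene and no date effect, and their outcome is not used here. Sequences are not shown here.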

Additional observations from a re-analysis of the deposited data

Results flagged for a closer look

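Among the 33 named genes, each genotype's 4 samples (replicates 2 to 5) were searched for a value far from the other 3 by Dixon's criterion, which chance passes in about 1 of 20 groups. Of 66 groups, 2 passed. Dpr9 was at 673 CPM in dSERT16 replicate 4, against 735 to 749 CPM in the other dSERT16 samples. Beat-Vc was at 3.88 CPM in dSERT4 replicate 5, against 9.50 to 10.6 CPM in the other dSERT4 samples. Without that sample the log2 fold change of beat-Vc was -0.016, against 0.22 with it. In dSERT16 too, replicate 5 was the lowest sample for beat-Vc, and with the replicate block the value was 0.275.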

How the results depend on the processing

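The count of called genes among the 53 was 0 with edgeR and 2 (dpr6 and beat-Va) with DESeq2, also with a replicate block. It was 1 (dpr6) without a filter, with at least 10 counts in every sample, with all 5 pairs, and with the replicate block on 4 or 5 pairs, and 0 to 1 when leaving out each sample. Over all features, 43 calls became 19 at an adjusted p under 0.01, 148 with DESeq2, 194 with DESeq2 and the block, 77 without a filter, 66 with all 5 pairs, 94 with the block on 5 pairs and 18 to 40 leaving out each sample (19 without dSERT16 replicate 3, 21 without dSERT16 replicate 5, 18 without dSERT4 replicate 3 and 22 without dSERT4 replicate 5). The other wiring genes went to 2 with DESeq2, 4 with DESeq2 and the block, 2 without a filter, 1 with all 5 pairs, 1 with the block, 2 with the block on 5 pairs and 0 to 1 leaving out each sample. Genes held at a minimum level numbered 30 by the authors' TPM, 47 by exon TPM and 51 at 10 counts in all 10 samples. In replicate 1, 2 calls became 5 with DESeq2 and 1 to 3 leaving out each sample, where omitting a sample of replicate 1 leaves a lone sample assumed to vary like the others. The cause of these shifts was not tested.

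Of 589 values for named genes under the alternatives, 543 kept their direction and call, and 35 changed sign, all in genes that were not called. With all 5 pairs DIP-kappa went to -0.038, beat-IIa to -0.026, dpr12 to -0.047 and dpr7 to -0.034, and with the replicate block on 5 pairs these were -0.021, -0.022, -0.046 and -0.026. With the replicate block on 4 pairs beat-Ia was 0.015 in edgeR and 0.013 in DESeq2. Leaving out each sample gave ranges across 0 for DIP-delta (-0.41 to 0.24), beat-IIa (-0.18 to 0.23), beat-IIb (-0.45 to 0.028), beat-Ia (-0.17 to 0.20), beat-Vc (-0.016 to 0.38), dpr10 (-0.10 to 0.022), dpr12 (-0.060 to 0.073), dpr5 (-0.0070 to 0.22), dpr7 (-0.066 to 0.084), dpr9 (-0.10 to 0.039), side-II (-0.0034 to 0.080), side-VI (-0.048 to 0.025) and side-VII (-0.095 to 0.046). DIP-kappa in replicate 1 ranged from 0.30 to 0.63. The replicate block changed no call among the 53 other than that of dpr6. Over the 53 genes 13 intervals reached beyond 1 on the log2 scale, so smaller differences in these genes may have been missed.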
